A study of Homo sapiens with 12 samples.

Results

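Glycolysis is the chain of cytosolic reactions that splits glucose into pyruvate, and lactate dehydrogenase turns pyruvate into lactate that leaves the cell through monocarboxylate transporters. Many genes of this chain are also targets of hypoxia-inducible factor (HIF), a transcription factor whose alpha subunits are marked for degradation by prolyl hydroxylases while oxygen is present. Myeloma cells, like other plasma cell tumours of the bone marrow, are known to use aerobic glycolysis and to carry HIF activity. Levels of 36 genes of glycolysis and of the response to hypoxia, chosen by name, were taken from the 59276 gene symbols measured by RNA-seq in JJN3 cells. The choice was made with earlier results of these data known. The 36 members are 4 glucose and lactate transporters, 17 glycolytic enzymes, 3 regulators of glycolytic flux, 4 genes for HIF subunits and prolyl hydroxylases, and 8 other hypoxia-responsive genes.

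JJN3 is an established human multiple myeloma line, and 12 samples of it fall into 4 groups of 3 replicates. Parental cells were cultured for 3 days with the solvent DMSO or with 10 µM MS023, an inhibitor of the type I protein arginine methyltransferases, of which PRMT1 is 1. The other groups had been infected with a lentivirus for Cas9 and mCherry, sorted for mCherry, infected again with an inducible guide vector and selected with puromycin. They carried a control guide (isgCtrl) or the single PRMT1 guide iPRMT1_1 (PRMT1-KO), and doxycycline was given to both for 3 days. Values are TPM, the abundance of each gene's transcripts per unit length, scaled to the same total in every sample, so that levels can be compared between genes. A log2 fold change is a difference between group means of log2(TPM+1), and the added 1 makes it too small for low genes. A gene was called higher or lower where limma gave a Benjamini-Hochberg adjusted p under 0.05 over all genes tested and an absolute log2 fold change above 0.48. Testing was limited to genes whose log2(TPM+1) averaged more than 1 in at least 1 of the groups compared. The labels do not say whether replicates were separate cultures, so p-values measure the spread between these samples. The smallest two-sided p that an exact permutation test can give for 3 against 3 samples is 0.1.

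Depth per sample cannot be read from TPM. Between 20988 and 22241 symbols were above 0 in a sample. The targeted gene PRMT1 was at 859.8 ± 9.15 TPM (SD, n = 3) in isgCtrl cells and fell to 304.04 ± 4.34 TPM (SD, n = 3) in PRMT1-KO cells, which is 35.4% of the control. Of 8 plasma cell markers, 7 were above 1 TPM in DMSO and in MS023, 6 in isgCtrl and 5 in PRMT1-KO. CD27 was at or near 0 throughout, and SLAMF7 was at 8.71 to 10.0 TPM in DMSO and at 0.149 to 0.520 TPM in isgCtrl. Monocyte or macrophage markers summed to at most 3.21 TPM in any sample. Erythroid markers summed to 13.8 to 19.4 TPM in isgCtrl and 5.65 to 6.86 TPM in DMSO, and stromal markers reached a sum of 13.7 TPM in isgCtrl. T cell markers summed to 49.5 to 66.0 TPM over all samples, nearly all of it CD247, while CD3G was at 0. With MS023, of the 7 plasma cell markers tested, SLAMF7 (2.37), XBP1 (1.15) and PRDM1 (0.60) rose and CD38 (-0.88) fell on the log2 scale in limma. Summed plasma cell markers were at 977 to 1020 TPM with MS023 and 613 to 649 TPM in DMSO. Stromal markers summed to 3.18 to 4.39 TPM with MS023 and 1.17 to 2.54 TPM in DMSO, and COL1A1 rose by 0.68. COL1A1 was tested only because its MS023 mean exceeded the minimum level. Between the controls, IRF4 was higher in isgCtrl by 0.72 and the haemoglobin gene HBA1 by 1.56, and SLAMF7 (-2.92) and CD38 (-1.37) were lower. For SLAMF7 only the DMSO mean passed the minimum level there. The part of these markers in the results was not tested.

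HIF binds DNA at the core ACGTG or GCGTG, and the E-box CACGTG, bound by MYC and MXI1 proteins with their partner MAX, contains ACGTG. RefSeq promoter windows on GRCh38.p14, from 250 bases before to 50 bases after a transcript start, matched 31 of the 36 members, the others being SLC2A3, SLC16A1, VEGFA, BNIP3L and NDRG1. On either strand, ACGTG or GCGTG stood in 22 of the 31 windows (71.0%), against 48.4% of all 27305 windows. ACGTG was in 12 (38.7%, against 21.6% of all), GCGTG in 15 (48.4%, against 36.3%) and CACGTG in 5 (16.1%, against 7.43%). The core stood in 8 of 9 windows of members called higher with MS023, in 1 of 2 of those called lower and in 12 of 18 of those not called. Where a gene had several windows, the first one listed was used. With any window of a gene, the core stood in 29 of the 31 members, against 52.4% of all genes, but 12 of the 31 members and 5191 of the 27305 genes have several windows. A match is a description of the letters and not a binding site.

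The windows below belong to the members with the largest changes in each direction with MS023 among those matched. They are printed along the gene from 5′ to 3′, with both cores on either strand in capitals, and the RefSeq start of the window follows the base in position 250. These starts can belong to an inner transcript. They lie over 1000 bases from the outer GENCODE start of the gene in 9 of the 31 windows, among them SLC16A3 (10501 bases), PFKP (1637 bases) and LDHB (100015 bases). ADM has 1 capital stretch, which begins 101 bases before the start (chr11:10304823-10305122, plus strand).
ADM: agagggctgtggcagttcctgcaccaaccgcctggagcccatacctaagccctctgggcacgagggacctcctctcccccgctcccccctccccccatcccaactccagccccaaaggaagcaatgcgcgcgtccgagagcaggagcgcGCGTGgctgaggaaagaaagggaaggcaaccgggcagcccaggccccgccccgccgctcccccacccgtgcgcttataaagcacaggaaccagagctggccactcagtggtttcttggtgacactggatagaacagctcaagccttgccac
ANKRD37 has 2 stretches, which begin 162 and 143 bases before the start, and the earlier one is an E-box (chr4:185396591-185396890, plus strand).
ANKRD37: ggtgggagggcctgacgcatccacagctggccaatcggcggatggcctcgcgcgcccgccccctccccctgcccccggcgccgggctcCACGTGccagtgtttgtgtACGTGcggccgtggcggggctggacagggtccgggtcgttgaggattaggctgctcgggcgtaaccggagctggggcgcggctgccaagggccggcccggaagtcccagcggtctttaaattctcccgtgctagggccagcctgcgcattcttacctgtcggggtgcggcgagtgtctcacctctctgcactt
ALDOC has 4 stretches, at 240, 108, 45 and 28 bases before the start (chr17:28576846-28577145, minus strand).
ALDOC: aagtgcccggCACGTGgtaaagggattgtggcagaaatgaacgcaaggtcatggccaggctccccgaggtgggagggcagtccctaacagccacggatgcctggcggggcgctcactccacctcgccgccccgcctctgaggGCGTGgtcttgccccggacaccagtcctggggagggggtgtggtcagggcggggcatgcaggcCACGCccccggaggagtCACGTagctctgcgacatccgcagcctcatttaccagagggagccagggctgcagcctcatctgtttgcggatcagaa
SLC16A3 holds neither core in its window (chr17:82228185-82228484, plus strand).
SLC16A3: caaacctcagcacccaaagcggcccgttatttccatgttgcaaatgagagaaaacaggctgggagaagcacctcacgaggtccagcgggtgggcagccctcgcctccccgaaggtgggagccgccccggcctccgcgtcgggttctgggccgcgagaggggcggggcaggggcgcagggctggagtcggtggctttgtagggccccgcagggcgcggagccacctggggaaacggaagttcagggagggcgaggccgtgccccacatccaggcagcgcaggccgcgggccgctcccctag
PFKP, the most strongly lowered member, also holds neither core (chr10:3067720-3068019, plus strand).
PFKP: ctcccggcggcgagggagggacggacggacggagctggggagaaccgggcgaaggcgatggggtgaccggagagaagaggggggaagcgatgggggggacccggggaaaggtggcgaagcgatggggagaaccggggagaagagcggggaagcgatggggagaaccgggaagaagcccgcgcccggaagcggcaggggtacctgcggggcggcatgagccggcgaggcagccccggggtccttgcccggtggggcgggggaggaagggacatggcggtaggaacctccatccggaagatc
LDHB has 1 stretch, 27 bases after the start (chr12:21657793-21658092, minus strand).
LDHB: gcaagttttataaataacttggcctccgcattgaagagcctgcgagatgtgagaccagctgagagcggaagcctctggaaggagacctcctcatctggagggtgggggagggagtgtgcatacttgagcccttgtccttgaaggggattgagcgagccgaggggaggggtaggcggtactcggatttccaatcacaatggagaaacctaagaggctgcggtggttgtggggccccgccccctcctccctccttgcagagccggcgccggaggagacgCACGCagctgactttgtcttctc

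In the DMSO cells the members together made up 1.45% ± 0.018 (SD, n = 3) of all TPM. GAPDH led with 3996 TPM, 27.5% of the members' total, followed by ENO1 with 3171 TPM, ALDOA with 1367 TPM, LDHB with 1141 TPM and PKM with 1120 TPM. The means of LDHB and PKM differed by less than the spread of the PKM samples. At the other end, SLC2A3, EPAS1, PFKFB4 and BNIP3 had means between 0.761 and 1.18 TPM, and EGLN3 was at 0.0919 TPM. The members' share of all TPM was 1.70% ± 0.019 with MS023, 1.42% ± 0.0029 in isgCtrl and 1.46% ± 0.013 (each SD over 3 samples) in PRMT1-KO. Every MS023 sample was above every DMSO sample in this share, which the most abundant members dominate. From DMSO to MS023 the means of GAPDH (3996 to 5609 TPM), PKM (1120 to 1737) and ALDOA (1367 to 1768) rose. Those of ENO1 (3171 to 3159), LDHB (1141 to 713), TPI1 (845 to 751) and GPI (433 to 412) were lower. Of the 34 members tested with MS023, 20 had a positive log2 fold change and 14 a negative one.

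The comparison of MS023 with DMSO asks which of these genes respond to the inhibitor. Of the 36 members 34 were tested, and 12 were called higher and 2 lower, while EGLN3 and BNIP3 were too low to test. The 14 calls are 41.2% of the members tested, against 30.9% of all 12903 genes tested. In the direction higher, 12 of 34 members compare with 11.6% of all genes, and in the direction lower 2 of 34 compare with 19.3%. An adjusted p under 0.05 alone was reached by 17 of 34 members, against 48.8% of all genes. The MS023 and DMSO samples did not overlap for 22 of the 34, against 59.5% of all genes, with 17 members higher (23.2% of all genes) and 5 lower (36.3% of all genes). The median log2 fold change was 0.13 over the members and -0.11 over all genes tested. The members were chosen with earlier results of these data known, so these shares only describe them. The part of that choice in the shares was not tested. Over all genes 1500 were called higher and 2486 lower, a split that became 1906 and 1959 with median-ratio scaling, while the members stayed at 12 and 2. In bulk RNA, a change in the share of cells that express a gene and a change in the RNA per cell cannot be told apart.

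**Figure D1:**
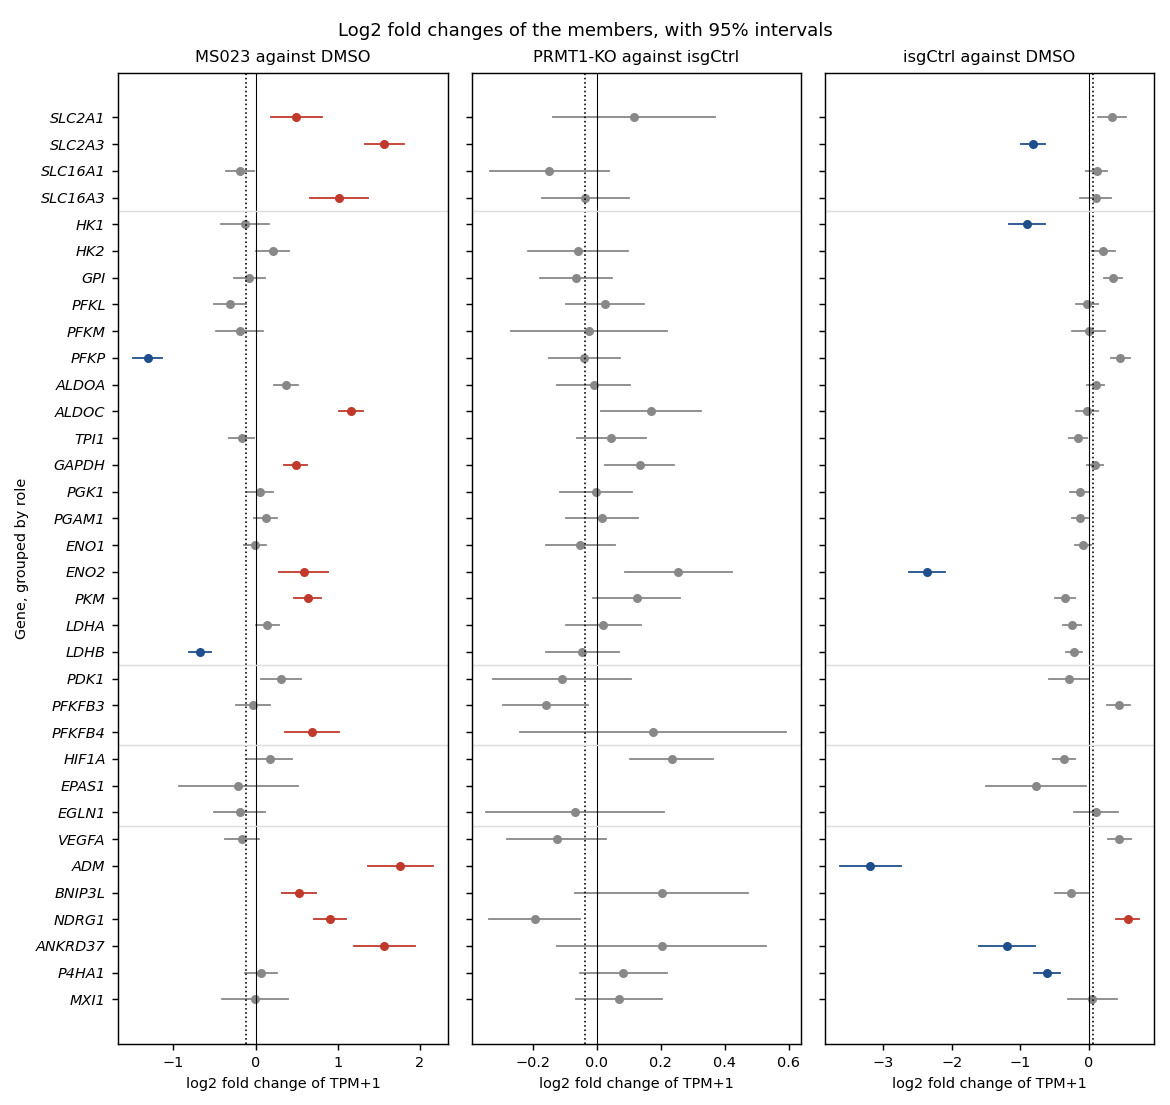
Log2 fold change of TPM+1 (horizontal) with its 95% interval from limma for each member tested (vertical, grouped by role), in 3 comparisons with separate horizontal scales. Red marks genes called higher, blue genes called lower and grey genes not called, and the dotted line is the median of all genes tested. With MS023 the members run from -1.31 (PFKP) to 1.76 (ADM), and no member is coloured in PRMT1-KO.

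Among the transporters, 3 of 4 rose with MS023, against 11.6% of all genes called higher. SLC2A3 encodes the high-affinity glucose transporter GLUT3 and lies on chromosome 12 (GRCh38, 7919230 to 8019007, minus strand). It was at 1.32, 1.05 and 1.18 TPM in DMSO and at 4.76, 5.75 and 5.93 TPM with MS023. All MS023 samples were above all DMSO samples, with means 4.63-fold apart. Its log2 fold change was 1.57 (SE 0.096, limma adjusted p = 0.000139). Reads of SLC2A3 are hard to separate from those of 4 near-identical copies, among them SLC2A14, which held 2.52% to 81.9% of the summed TPM in a sample. With the copies summed the log2 fold change was 1.49.

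SLC16A3 (MCT4), a lactate exporter, was at 11.7, 14.6 and 13.5 TPM in DMSO and at 29.0, 22.9 and 32.0 TPM with MS023. No MS023 sample overlapped the DMSO samples, and the log2 fold change was 1.01 (SE 0.14, limma adjusted p = 0.00226). SLC2A1 (GLUT1), the ubiquitous glucose transporter, was at 76.2, 83.3 and 93.1 TPM in DMSO and at 118, 104 and 137 TPM with MS023. Treated and control samples were apart, and the log2 fold change of 0.49 (SE 0.13, limma adjusted p = 0.0205) stood just above the threshold. The SLC2A1 call was lost without DMSO replicate 1 (adjusted p = 0.065), DMSO replicate 2 (0.0566) or MS023 replicate 1 (0.0555) in limma, and without MS023 replicate 3 the log2 fold change was 0.39. SLC16A1 (MCT1), the other monocarboxylate transporter, was not called, at 144 ± 5.72 TPM in the 3 DMSO samples and 126 ± 6.09 TPM (both ± SD) in the 3 treated ones.

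Of the 17 glycolytic enzymes, 4 rose, 2 fell and 11 were not called with MS023. Over all genes 11.6% were called higher and 19.3% lower, or 30.9% in either direction. The risen enzymes were ALDOC, GAPDH, ENO2 and PKM, and the fallen ones PFKP and LDHB. ALDOC, the brain-type aldolase on chromosome 17 (28573115 to 28576948, minus strand), was at 39.0, 38.3 and 39.4 TPM in DMSO and at 87.6, 85.9 and 91.8 TPM with MS023. The replicates lay close together and the groups did not overlap. The log2 fold change was 1.16 (SE 0.060, limma adjusted p = 8.95e-05), and the means were 2.27-fold apart.

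PKM encodes pyruvate kinase, the last enzyme of the chain, and its M1 and M2 splice forms are summed in these values. It was at 1070, 1164 and 1125 TPM in DMSO and at 1726, 1672 and 1813 TPM with MS023. The groups stood far apart, with a log2 fold change of 0.63 (SE 0.068, limma adjusted p = 0.000836). GAPDH, which oxidizes glyceraldehyde 3-phosphate and is widely used as a reference gene, was at 3984, 3938 and 4067 TPM in DMSO and at 5579, 5592 and 5656 TPM with MS023. The log2 fold change of 0.49 (SE 0.056, limma adjusted p = 0.00108) passed the fold threshold narrowly and was 0.48, just under it, without DMSO replicate 2. The 62 near-identical GAPDH copies held at most 0.0654% of the summed TPM.

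ENO2, the neuronal enolase, was at 20.8, 18.4 and 15.4 TPM in DMSO and at 26.9, 26.1 and 29.9 TPM with MS023. Every treated sample was above every control sample, and the log2 fold change was 0.58 (SE 0.12, limma adjusted p = 0.00915). Without DMSO replicate 3, the lowest DMSO sample, it was 0.48 and no longer past the fold threshold.

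PFKP encodes the platelet form of phosphofructokinase, the enzyme of the committed step, and lies on chromosome 10 (3066333 to 3137718, plus strand). It was at 59.9, 55.9 and 60.3 TPM in DMSO and at 22.1, 22.4 and 24.5 TPM with MS023, or 39.2% of the control mean. All MS023 samples were below all DMSO samples, and the log2 fold change was -1.31 (SE 0.071, limma adjusted p = 0.0001). LDHB, the heart-type subunit of lactate dehydrogenase on chromosome 12 (21635342 to 21757857, minus strand), was at 1130, 1149 and 1145 TPM in DMSO and at 724, 712 and 704 TPM with MS023. The replicates lay close together and the groups far apart, at a log2 fold change of -0.68 (SE 0.056, limma adjusted p = 0.000351).

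Of the enzymes not called, ALDOA (log2 fold change 0.37, limma adjusted p = 0.00359) and PFKL (-0.31, adjusted p = 0.0205) passed the adjusted p but not the fold threshold. The other 9, HK1, HK2, GPI, PFKM, TPI1, PGK1, PGAM1, ENO1 and LDHA, had log2 fold changes between -0.19 and 0.21. ENO1, the main enolase, was at 3171 ± 51.0 TPM in the 3 DMSO samples and 3159 ± 34.4 TPM (both ± SD) in the 3 treated ones, and its log2 fold change was -0.01.

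Since several of these enzymes have isoforms that catalyse the same step, shares within families were also compared. LDHB made up 56.0% ± 0.827 of the summed TPM of LDHA and LDHB in DMSO (SD, n = 3) and 41.8% ± 0.366 in treated cells (SD, n = 3). LDHA, the muscle-type subunit, was thus the minor transcript in all DMSO samples and the major one in all MS023 samples. PFKP was 26.6% ± 0.669 of the 3 phosphofructokinase genes in DMSO (SD, n = 3) and 14.6% ± 1.09 in treated cells (SD, n = 3), and their summed level was 220.4 ± 10.2 TPM in DMSO and 159 ± 12.8 TPM with MS023.

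ALDOC was 2.77% of the summed TPM of ALDOA and ALDOC in DMSO and 4.76% with MS023. SLC2A3 was 1.40% of SLC2A1 and SLC2A3 in DMSO and 4.44% with MS023, and SLC16A3 was 8.45% of SLC16A1 and SLC16A3 in DMSO and 18.1% with MS023. The MS023 and DMSO samples did not overlap in any of these 5 shares, each with the smallest possible p = 0.1 in the two-sided exact permutation test. The hexokinase share of HK1 overlapped, at 9.75% in DMSO and 7.44% with MS023 (two-sided exact permutation test, p = 0.2).

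Of the 3 regulators of flux, PFKFB4 rose with MS023, against 11.6% of all genes called higher. PFKFB4 makes and breaks down fructose 2,6-bisphosphate, the activator of phosphofructokinase. It was at 0.566, 1.12 and 0.705 TPM in DMSO and at 1.76, 2.18 and 1.66 TPM with MS023. The groups did not overlap, and the log2 fold change was 0.68 (SE 0.13, limma adjusted p = 0.00784), but the gene was tested only because its MS023 mean exceeded the minimum level. PDK1, a kinase that inhibits pyruvate dehydrogenase, had a log2 fold change of 0.31 (limma adjusted p = 0.0415), under the fold threshold. PFKFB3 was at 9.44 ± 0.664 TPM in the 3 DMSO samples and 9.2 ± 0.772 TPM (both ± SD) in the 3 treated ones.

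None of the 3 HIF and hydroxylase genes tested was called with MS023, against 30.9% of all genes. HIF1A, the oxygen-regulated alpha subunit, was at 31.6 ± 1.85 TPM in the 3 DMSO samples and 35.97 ± 4.97 TPM (both ± SD) in the 3 treated ones, and its log2 fold change was 0.17 with a 95% interval of -0.10 to 0.45. EGLN1, the main prolyl hydroxylase, was at 11.2 ± 1.77 TPM in the 3 DMSO samples and 9.61 ± 1.06 TPM (both ± SD) in the 3 treated ones. EPAS1 (HIF2A) varied within DMSO from 0.443 to 2.23 TPM and was at 0.620 to 0.958 TPM with MS023. HIF activity is regulated mainly at the protein level, which RNA does not measure.

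Of the 8 other hypoxia-responsive members, ADM, ANKRD37, NDRG1 and BNIP3L rose with MS023, against 11.6% of all genes called higher. ADM encodes the vasodilator peptide adrenomedullin and lies on chromosome 11 (10305073 to 10307397, plus strand). It was at 12.8, 7.89 and 11.0 TPM in DMSO and at 37.4, 37.5 and 38.1 TPM with MS023. The MS023 samples lay close together and 3.56-fold above the DMSO mean. The log2 fold change of 1.76 (SE 0.16, limma adjusted p = 0.000502) was the largest rise among the members tested.

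ANKRD37, an ankyrin repeat gene known as a HIF target, lies on chromosome 4 (185396021 to 185400628, plus strand). It was at 9.68, 12.7 and 8.18 TPM in DMSO and at 32.2, 32.8 and 30.3 TPM with MS023. All MS023 samples were above all DMSO samples, and the log2 fold change was 1.57 (SE 0.15, limma adjusted p = 0.000581). NDRG1, a stress-responsive gene, was at 147, 131 and 141 TPM in DMSO and at 263, 245 and 279 TPM with MS023. All treated samples were higher, at a log2 fold change of 0.90 (SE 0.080, limma adjusted p = 0.000453).

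BNIP3L, a mitophagy receptor, was at 7.44, 6.65 and 6.08 TPM in DMSO and at 9.66, 10.6 and 10.2 TPM with MS023. The groups did not overlap, and the log2 fold change was 0.53 (SE 0.085, limma adjusted p = 0.00376), or 0.47 and not called without DMSO replicate 3. VEGFA, the angiogenic growth factor, P4HA1, a collagen prolyl hydroxylase subunit, and MXI1, a MYC antagonist, had log2 fold changes between -0.16 and 0.07 and were not called. BNIP3 was at 0.533 to 0.968 TPM in DMSO and 0.164 to 0.421 TPM with MS023, and its 39 near-identical copies held 44.7% to 85.8% of the summed TPM.

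The comparison of PRMT1-KO with isgCtrl asks what the PRMT1 guide changed. Of 30 members tested, 0 were called in limma with Benjamini-Hochberg adjustment, against 0.781% of all 12285 genes tested, so that a count of 0 among 30 is close to the background. At an unadjusted p under 0.05, 6 of the 30 members passed in limma (HIF1A, ENO2, NDRG1, GAPDH, PFKFB3 and ALDOC), against 18.6% of all genes, which is near the background, and the lowest adjusted p was 0.112. The median log2 fold change was 0.0062 over the members and -0.038 over all genes tested. An adjusted p under 0.05 in limma was reached by 0 members, against 1.28% of all genes. Samples did not overlap for 12 of the 30 members, against 26.7% of all genes, with 7 higher in PRMT1-KO (9.11% of all genes) and 5 lower (17.6% of all genes).

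Of the 14 members called with MS023, 12 were tested in PRMT1-KO and 0 were called in limma with Benjamini-Hochberg adjustment, 4 of them with an unadjusted p under 0.05 (18.6% of all genes). ALDOC was at 41.3, 36.5 and 37.2 TPM in isgCtrl and at 42.9, 44.2 and 42.4 TPM in PRMT1-KO. The log2 fold change was 0.17, with a 95% interval of 0.01 to 0.33 (limma adjusted p = 0.243). PFKP was at 81.2, 82.1 and 80.3 TPM in isgCtrl and at 79.6, 80.0 and 77.4 TPM in PRMT1-KO. All PRMT1-KO samples were below all isgCtrl samples, by little, and the log2 fold change was -0.04 with a 95% interval of -0.15 to 0.07.

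HIF1A was at 24.2, 23.7 and 25.5 TPM in isgCtrl and at 28.0, 29.4 and 29.4 TPM in PRMT1-KO. All PRMT1-KO samples were above all isgCtrl samples, but the log2 fold change of 0.23 (95% interval 0.10 to 0.36) did not pass the adjustment (limma adjusted p = 0.112). ENO2 was at 2.68, 2.72 and 2.73 TPM in isgCtrl and at 3.25, 3.23 and 3.84 TPM in PRMT1-KO, a log2 fold change of 0.25 (95% interval 0.09 to 0.42, limma adjusted p = 0.147). The groups did not overlap for this gene either. ADM, SLC2A3, HK1 and EPAS1 were too low in both groups to be tested, with ADM at 0.0798 to 0.343 TPM in isgCtrl and 0 to 0.191 TPM in PRMT1-KO.

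Whether the effects of the inhibitor and of the guide differ was tested directly over all 12 samples. Of 34 members tested, 9 were called (26.5%), against 24.4% of 13256 genes. The MS023 effect was higher for 7 members, against 9.69% of all genes, and lower for 2, against 14.7%. An adjusted p under 0.05 alone was reached by 14 members, against 35.6% of all genes. The difference of log2 fold changes was 1.99 for ADM, 1.49 for SLC2A3, 1.37 for ANKRD37, 1.10 for NDRG1, 1.05 for SLC16A3, 0.99 for ALDOC and 0.51 for PKM. It was -1.28 for PFKP and -0.63 for LDHB. The largest limma adjusted p among the 9 was 0.000858, for PKM. The PKM difference fell under the fold threshold with quantile normalization (0.46) and without DMSO replicate 1, MS023 replicate 3 or isgCtrl replicate 1 (0.48 each). The difference was not called for 5 members that were called with MS023. It was 0.36 for GAPDH (95% interval 0.23 to 0.49, limma adjusted p = 0.00107), and it lay between 0.33 and 0.51 for SLC2A1, ENO2, PFKFB4 and BNIP3L (limma adjusted p of 0.099 to 0.115). The PDK1 difference of 0.42 passed the fold threshold with median-ratio scaling (0.50), with quantile normalization (0.52) and without DMSO replicate 3 (0.50). ADM and SLC2A3 passed the minimum level only through the DMSO and MS023 groups. They were near 0 in both guide-carrying groups and too low to test there, so their differences of 1.99 and 1.49 say little about the guide. With log2(TPM+1) above 1 required in every sample, 7 members were called, 5 of them with the higher MS023 effect.

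The comparison of isgCtrl with DMSO describes how far the control groups lay apart. They differ in Cas9, guide vector, selection, doxycycline and DMSO together, and these cannot be told apart. DMSO is also the control of MS023 and isgCtrl that of PRMT1-KO, so the comparisons share samples. Of 33 members tested, 1 was called higher and 6 lower (21.2%), against 13.9% of all 12661 genes tested, or 7.23% higher and 6.7% lower. An adjusted p under 0.05 was reached by 16 members, against 34.5% of all genes. Samples did not overlap for 24 of the 33, against 51.7% of all genes, with 9 members higher (31.8% of all genes) and 15 lower (19.9% of all genes). The median log2 fold change was -0.09 over the members and 0.07 over all genes tested.

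The largest differences were in ADM and ENO2. ADM was at 0.343, 0.334 and 0.0798 TPM in isgCtrl, against 7.89 to 12.8 TPM in DMSO, a log2 fold change of -3.19 (SE 0.18, limma adjusted p = 0.000372). ENO2 was at 2.68 to 2.73 TPM in isgCtrl and 15.4 to 20.8 TPM in DMSO, or 14.9% of the DMSO mean, a log2 fold change of -2.36 (SE 0.11, limma adjusted p = 0.000163). Neither gene overlapped between the groups.

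ANKRD37 was at 3.45, 3.62 and 4.51 TPM in isgCtrl, and fell by 1.19 on the log2 scale relative to DMSO (SE 0.17, limma adjusted p = 0.00466). HK1, a hexokinase that starts glycolysis, was at 0.584, 0.456 and 0.529 TPM in isgCtrl and at 2.13, 1.999 and 1.44 TPM in DMSO. Its log2 fold change was -0.90 (SE 0.11, limma adjusted p = 0.00286), at levels where only the DMSO mean passed the minimum. P4HA1 was at 8.91, 9.63 and 8.90 TPM in isgCtrl and at 16.0, 13.8 and 13.8 TPM in DMSO, a log2 fold change of -0.61 (SE 0.076, limma adjusted p = 0.00328).

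SLC2A3 was at 0.174, 0.301 and 0.254 TPM in isgCtrl, with a log2 fold change of -0.81 (SE 0.072, limma adjusted p = 0.00134) at levels where, as for ADM and HK1, only the DMSO mean passed the minimum. It was -0.60 and not called once its copies were summed (adjusted p = 0.123 in limma). NDRG1 was the member called higher, at 199, 218 and 207 TPM in isgCtrl, with a log2 fold change of 0.57 (SE 0.069, limma adjusted p = 0.00315). Side by side, ADM, ANKRD37 and SLC2A3 had log2 fold changes of 1.76, 1.57 and 1.57 with MS023 and of -3.19, -1.19 and -0.81 between the controls, whereas NDRG1 had 0.90 and 0.57. For PFKP the values were -1.31 and 0.46, the latter under the fold threshold.

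A further 9 members passed the adjusted p between the controls but not the fold threshold. PFKP (0.46), PFKFB3 (0.44), VEGFA (0.44), GPI (0.35) and SLC2A1 (0.34) had positive log2 fold changes, and HIF1A (-0.36), PKM (-0.35), LDHA (-0.25) and LDHB (-0.21) negative ones. VEGFA without DMSO replicate 1, PFKFB3 without DMSO replicate 2 and PFKP without DMSO replicate 3 reached 0.48 and passed. Among the members not called, EPAS1 (-0.77) varied most between DMSO samples. It was called with all 12 samples in 1 fit (limma adjusted p = 0.0313), although only its DMSO mean passed the minimum level.

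Other genes of these pathways were counted from 3 further lists. Among 44 other glycolysis and pyruvate genes, 25 were tested with MS023, and 3 were called higher and 4 lower (28.0%, against 30.9% of all genes). Without MS023 replicate 1 the list had 4 calls. SLC2A5, the fructose transporter GLUT5, had a log2 fold change of 1.78 (limma adjusted p = 0.00369), and PDK2, a kinase that inhibits pyruvate dehydrogenase, 0.94. FBP1 (-0.63) and PCK2 (-0.52), enzymes of gluconeogenesis, and DLD (-0.61) and DLAT (-0.54), subunits of pyruvate dehydrogenase, were lower. FBP1 was tested only because its DMSO mean exceeded the minimum level. SLC2A5 was at 2.44 to 6.19 TPM in DMSO, 17.0 to 18.5 TPM with MS023 and 0.0696 to 0.245 TPM in isgCtrl. Its log2 fold change in isgCtrl against DMSO was -2.30, with only the DMSO mean past the minimum level.

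Among 56 other hypoxia and HIF genes, 42 were tested with MS023, and 7 were called higher and 4 lower (26.2%, against 30.9% of all genes). MAFF, a small basic leucine zipper factor, was highest at 1.83 (limma adjusted p = 8.3e-05), followed by the repressor BHLHE41 (1.48), the collagen hydroxylase subunit P4HA2 (1.11) and heme oxygenase HMOX1 (1.07). ZNF395 (-0.99), the chemokine receptor CXCR4 (-0.91), the lipid droplet gene HILPDA (-0.71) and RORA (-0.57) were lower. The list's median was -0.08, near the -0.11 of all genes. CA9, a carbonic anhydrase widely used as a marker of HIF activity, was too low to test, at 0.474 to 0.768 TPM with MS023 and 0 to 0.343 TPM in DMSO.

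Among 22 genes of the pentose phosphate, serine and glycogen branches, 21 were tested with MS023, and 2 were called higher and 7 lower (42.9%). Over all genes 30.9% were called, 11.6% higher and 19.3% lower. GFPT1, the entry enzyme of hexosamine synthesis, was higher by 0.79. PGLS (-1.42, limma adjusted p = 6.8e-05), an enzyme of the pentose phosphate pathway, PGM1 (-1.11), RPE (-0.99) and GPD2 (-0.80) were lower. In PRMT1-KO the 3 lists had 0, 0 and 1 called gene, against 0.781% of all genes. The 1 gene was glycogen phosphorylase PYGL at -0.48 (limma adjusted p = 0.0296). The PYGL call stood at the fold threshold and was lost, leaving 0, without each of the 6 samples in turn and with the replicate block, with median-ratio scaling and with quantile normalization.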

How the data were processed

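RNA-seq of 12 JJN3 samples was used, in 4 groups of 3 taken from the labels. The authors used Trimmomatic for trimming, STAR for mapping (hg38, GENCODE V35) and Salmon for quantification, and deposited log2(TPM+1) per gene symbol. The deposited log2 values were used as they stand, and TPM were obtained from them. Depth per sample is unknown from TPM, so no count model was used.

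Genes whose log2(TPM+1) averaged more than 1 in at least 1 group compared were tested with limma 3.58.1 in R 4.3.3 (eBayes without trend), on the 6 samples of a comparison or on all 12 for the difference of effects. Adjustment was by Benjamini-Hochberg over all genes tested, and calls used the thresholds of the study's methods, an adjusted p under 0.05 with a log2 fold change beyond 0.48 in either direction. Exact permutation tests, shares and motif counts were computed in Python 3.11.15. The code was tested on simulated data.

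The members and lists were chosen with earlier results of these data known. All members are accounted for. Of each further list, called genes were named, up to the 4 largest changes in each direction. CA9 was added after its values were seen. Positions come from GENCODE v44 on GRCh38, and promoter sequences from RefSeq. Alternatives were a pseudocount of 0.1, other filters on low values, quantile normalization, median-ratio scaling, the replicate block, a trend in eBayes, 1 fit of all 12 samples, other fold thresholds and leaving out each sample, and, chosen after seeing the data, near-identical copies summed. Isoenzyme proteins were not analysed here, and some called genes of the further lists are not reported here.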

Additional observations from a re-analysis of the deposited data

How the results depend on the processing

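With MS023, the 14 member calls (12 higher, 2 lower) were 13 to 14 under every alternative of filter, pseudocount, scaling, eBayes trend and fit, and 17 without a fold threshold. A required log2 fold change beyond 1 in either direction left 6 member calls with MS023, against 8.39% of all genes. Of the lists it left 1 other glycolysis gene, 4 other hypoxia genes and 2 pentose phosphate and serine genes. Between isgCtrl and DMSO it left 3 members (3, 1 and 0 in the lists), against 2.91% of all genes. For the difference of effects it left 6 members (1, 5 and 1), against 6.95% of all genes. Without a fold threshold there were 13 of 25 other glycolysis and 19 of 42 other hypoxia genes with MS023, against 48.8% of all genes. Between the controls there were 16 of 33 members (9 of 24, 15 of 42 and 15 of 21 in the lists), against 34.5%. In the difference of effects there were 14 of 34 members and 16 of 42 other hypoxia genes, against 35.6%. Requiring log2(TPM+1) above 1 in every sample left 4 member calls and 3 other glycolysis calls between the controls, and a member median of -0.022, because ADM, SLC2A3, HK1 and other low genes were no longer tested. PRMT1-KO had 0 member calls under all alternatives in limma, with 6 members at an unadjusted p under 0.05 in the fit reported. Its only list call, PYGL, gave way to 0 with median-ratio scaling, quantile normalization, the replicate block or an absolute log2 fold change above 1, and 1 other glycolysis gene was called with eBayes trend or with all 12 samples in 1 fit. Between the controls, 5 other hypoxia genes were called with eBayes trend or with all 12 samples in 1 fit, against 14.5% and 14.7% of all genes. The cause of these shifts in the lists was not tested.

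Median-ratio scaling raised the members' median log2 fold change from 0.13 to 0.24 with MS023, from 0.0062 to 0.046 in PRMT1-KO and from 0.12 to 0.19 in the difference of effects, and took it from -0.09 to -0.14 between the controls. Quantile normalization gave 0.19 with MS023 and 0.026 in PRMT1-KO. These scalings also moved the median of all genes tested with MS023, from -0.11 to -0.02. They changed the split of calls over all genes in the difference of effects from 1284 higher and 1947 lower to 1629 and 1590 with median-ratio scaling, in PRMT1-KO from 51 and 45 to 65 and 30, and between the controls from 915 and 848 to 678 and 947. No called member changed direction under any alternative run.

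Leaving out 1 sample at a time gave 12 to 14 member calls with MS023, 0 to 0 in PRMT1-KO, 7 to 8 between the controls and 8 to 10 in the difference of effects. Member medians were then 0.10 to 0.15, -0.00011 to 0.030, -0.112 to -0.084 and 0.10 to 0.12. Other glycolysis genes called were 4 to 8 with MS023 and 3 to 6 in the difference of effects, the lowest of each without MS023 replicate 1. Other hypoxia genes called between the controls were 3 to 6, and the pentose phosphate and serine genes called in PRMT1-KO were 0 to 0.

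The replicate numbers were checked for pairing by the correlation of deviations from the group means. Same-numbered samples had a mean r of 0.065 (0.021 to 0.10) with MS023, -0.047 in PRMT1-KO and -0.10 between the controls. Differently numbered samples had a mean r of -0.033 (-0.096 to 0.030), 0.024 and 0.051. Values this small, from 3 samples per group, cannot decide whether same-numbered samples were paired. With the replicate number as a block, member calls were 14 with MS023, 0 in PRMT1-KO, 7 between the controls and 9 in the difference of effects. Over all genes the block gave 4018, 0, 1584 and 3215 calls in limma, with 2054 genes at an unadjusted p under 0.05 in PRMT1-KO. PRMT1 itself had an adjusted p of 0.149 under the block. TPM carry no depth, so the precision of low members such as EGLN3 and BNIP3 cannot be given.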

Other observations

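Between the control groups, 2 of 24 tested genes of the other glycolysis and pyruvate list were called higher in isgCtrl and 3 lower, against 7.23% higher and 6.7% lower of all genes tested. FBP1, a gluconeogenic enzyme, had a log2 fold change of 1.34 (limma adjusted p = 0.00497) and PGAM5, a mitochondrial phosphatase, 0.72. SLC2A5 (-2.30), SLC2A6 (-1.05) and PDK2 (-0.89) were lower. For SLC2A5 and SLC2A6 only the DMSO mean passed the minimum level. With log2(TPM+1) above 1 required in every sample, the list had 2 genes called higher and 1 lower. FBP1 was at 4.13 to 6.42 TPM in isgCtrl, 2.38 to 2.92 TPM in PRMT1-KO, 1.06 to 1.92 TPM in DMSO and 0.331 to 0.831 TPM with MS023.

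Of 42 other hypoxia and HIF genes tested between the controls, 3 were called higher and 0 lower in limma with Benjamini-Hochberg adjustment (7.23% and 6.7% of all genes), or 6 in all without DMSO replicate 1 and 5 without DMSO replicate 3 or isgCtrl replicate 3. PIM1, a kinase, had a log2 fold change of 1.21, the coactivator CREBBP 0.56 and CITED2, which competes with HIF for coactivators, 0.53. PIM1 was also called higher with MS023 (0.57), at 32.4 to 34.9 TPM against 20.6 to 23.3 TPM in DMSO, and was at 52.4 to 54.3 TPM in isgCtrl. Of 21 pentose phosphate, serine and glycogen genes, 4 were called higher (PYGL 0.80, SHMT1 0.63, GPD2 0.53 and PSPH 0.48) and 2 lower (PGM1 -0.70 and PSAT1 -0.54), against the same shares of all genes.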
